A study of Homo sapiens with 6 samples.

Results

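The ERBB receptors, the EGF-like growth factors that bind them and the inhibitors ERRFI1 and LRIG1 were followed in HepG2 cells, a human line derived from a hepatocellular carcinoma, after knockdown of DGUOK, the mitochondrial kinase of purine deoxynucleosides. They are 10 genes chosen by symbol from the 34036 genes of the count table: EGFR, ERBB2, ERBB3, AREG, EREG, HBEGF, TGFA, BTC, ERRFI1 and LRIG1. All 10 had a count in at least 1 library, and 9 passed the filter on low counts. Bulk RNA-seq libraries came from 3 cultures given a non-targeting siRNA (siControl) and 3 given a pool of siRNAs against DGUOK (siDGUOK), each harvested 48 h after transfection. The submitters describe the cultures of a condition as independent biological replicates. Total counts on genes were 19065684, 18915508 and 10527216 in siControl replicates 1, 2 and 3. Those of siDGUOK replicates 1, 2 and 3 were 18613138, 15978314 and 21334876. At least 1 count was found for 17071, 16298 and 16694 genes in siControl replicates 1, 2 and 3, and for 21057, 17583 and 16205 genes in siDGUOK replicates 1, 2 and 3, so that siDGUOK replicate 1 stood apart in the number of genes detected. Levels are given as CPM, which is a count scaled by the TMM-adjusted size of its library.

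The ERBB receptors are tyrosine kinases of the cell surface that pair with each other when an EGF-like ligand binds, and then start the RAS-ERK and PI3K cascades. The ligands are made as membrane-bound precursors that proteases shed, and several genes induced downstream restrain the receptors. In liver, EGFR and its ligands are known for their part in hepatocyte proliferation and regeneration.

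The targeted gene checked the group labels, since the treatment field of the sample records gives the control siRNA for every library and the groups rest on the titles. DGUOK (ENSG00000114956.19) stood at 54.4, 53.1 and 48.2 CPM in siControl replicates 1, 2 and 3, and at 9.08, 10.53 and 6.72 CPM in siDGUOK replicates 1, 2 and 3. Each siDGUOK library lay below each siControl library, in the direction of its title. Its log2 fold change was −2.57, with a standard error (SE) of 0.19.

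Calls were made with edgeR's quasi-likelihood test and Benjamini-Hochberg adjustment, and needed both an adjusted p below 0.05 and a log2 fold change past 0.5 in either direction. They took in 14.1% of the 14476 genes tested, with 7.42% higher and 6.68% lower in siDGUOK cells. That balance turned without siDGUOK replicate 1, where 894 genes were called higher and 988 lower. Among the 9 members tested, 7 were called. EGFR, AREG, EREG and ERRFI1 were called higher, and ERBB2, ERBB3 and LRIG1 lower. HBEGF and TGFA were not called, and BTC was not tested, with 1 count in all. The siControl and siDGUOK libraries did not overlap for 8 of the 9, against 36% of all genes tested. In these bulk samples, a change in the share of cells that express a gene and a change in RNA per cell cannot be told apart.

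**Figure D1:**
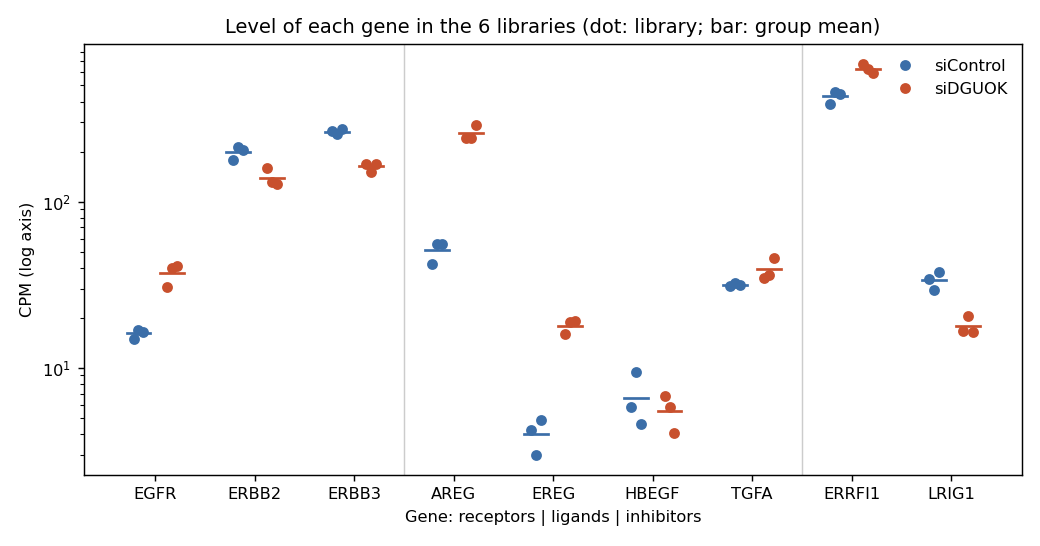
CPM on a log axis for the 9 genes tested, with 1 dot per library, bars at the group means, siControl in blue and siDGUOK in orange. The groups overlap for HBEGF and for none of the other genes drawn.

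EGFR (ENSG00000146648.17, chr7:55019017-55211628, plus strand) binds AREG, EREG, HBEGF and TGFA. Its level was 15.0, 16.9 and 16.5 CPM in siControl replicates 1, 2 and 3, and 30.6, 39.8 and 41.3 CPM in siDGUOK replicates 1, 2 and 3. The lowest siDGUOK library lay well above the highest siControl library. The group means were 16.1 ± 1.01 and 37.2 ± 5.80 CPM (SD, n = 3), and the fold in edgeR's fit was 2.31. Its log2 fold change was 1.21 (SE 0.18, adjusted p = 8.27e-05 in edgeR's quasi-likelihood test with Benjamini-Hochberg adjustment). EGFR also stands in gene lists that the study printed from these same libraries, so its rise is not independent of them. Among the genes named below, CXCL8, SHC1, SH3KBP1, PLCG1 and TUBA1A also stand in such lists. An antisense gene, EGFR-AS1, overlaps 1.17% of EGFR's exon bases. EGFR-AS1 stood at 12.2 ± 1.31 CPM in siControl and 11.2 ± 1.42 CPM in siDGUOK cells (SD, n = 3), with overlapping groups and no call.

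ERBB2 (ENSG00000141736.13, chr17:39687914-39730426, plus strand) has no known ligand and serves as the partner of the other receptors. Genes on the opposite strand share some of its exon bases, MIEN1 5.53% and PGAP3 1.40% of them, so its counts and its level per kb are uncertain to that extent; neither gene was called. Its level was 178.7, 213.7 and 205.6 CPM in siControl replicates 1, 2 and 3. It was 158.4, 131.0 and 128.1 CPM in siDGUOK replicates 1, 2 and 3. The groups did not overlap, although siDGUOK replicate 1 came near siControl replicate 1. The log2 fold change was −0.52 (SE 0.10, adjusted p = 0.000979 in edgeR's quasi-likelihood test with Benjamini-Hochberg adjustment). That value lies just past the fold threshold. It moved to −0.46 without siControl replicate 2, to −0.49 without siControl replicate 3, and to −0.47 without siDGUOK replicate 2 or without siDGUOK replicate 3, so each of these fits ended the call. Their adjusted p-values in edgeR's test stayed between 0.00584 and 0.0144.

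ERBB3 (ENSG00000065361.14, chr12:56076799-56103505, plus strand) binds neuregulins, has little kinase activity of its own and recruits PI3K. It stood at 265.1, 254.8 and 272.0 CPM in siControl replicates 1, 2 and 3, and at 167.9, 151.5 and 169.1 CPM in siDGUOK replicates 1, 2 and 3. The siControl libraries lay close together and far above the siDGUOK libraries. The group means were 264.0 ± 8.65 and 162.9 ± 9.81 CPM (SD, n = 3). Its log2 fold change was −0.70 (SE 0.08, adjusted p = 5.51e-06 in edgeR's quasi-likelihood test with Benjamini-Hochberg adjustment).

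The receptors were compared with each other as CPM per kb of each gene's canonical transcript. EGFR made up 1.72%, 1.82% and 1.75% of the summed level of the 3 receptors in siControl replicates 1, 2 and 3. In siDGUOK replicates 1, 2 and 3 it made up 4.56%, 6.73% and 6.68%. EGFR was therefore the scarcest of the 3 in every library, and its share was higher in each siDGUOK library than in each siControl library. The ratio of ERBB3 to EGFR was 31.2, 26.5 and 29.1 in siControl replicates 1, 2 and 3, and 9.68, 6.71 and 7.23 in siDGUOK replicates 1, 2 and 3. The ratio of ERBB3 to ERBB2 lay between 0.968 and 1.20 in siControl and between 0.860 and 1.07 in siDGUOK libraries. Both ranges reach to either side of 1, so these values give no fixed order of ERBB2 and ERBB3. With the union of all annotated exons as the length, this ratio lay between 1.05 and 1.31 in siControl and between 0.934 and 1.16 in siDGUOK libraries, so that the order depended on the length used. On the same union length, EGFR's share lay between 2.30% and 2.44% in siControl and between 6.07% and 8.88% in siDGUOK libraries. No test was run on these shares and ratios.

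**Figure D2:**
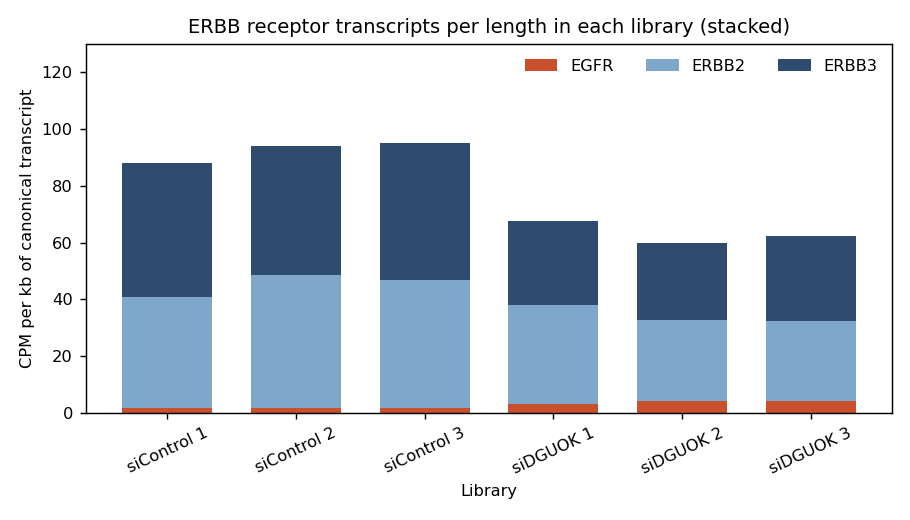
Stacked bars of CPM per kb of canonical transcript for EGFR, ERBB2 and ERBB3 in each library. ERBB2 and ERBB3 make up most of every bar, and the EGFR segment takes 1.72% to 1.82% of the siControl bars and 4.56% to 6.73% of the siDGUOK bars.

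AREG (ENSG00000109321.10, chr4:74445136-74455005, plus strand) encodes amphiregulin, a ligand of EGFR that is known to be induced in injured liver. It stood at 41.98, 55.3 and 55.7 CPM in siControl replicates 1, 2 and 3, and at 242.2, 241.5 and 289.1 CPM in siDGUOK replicates 1, 2 and 3. Each siDGUOK library was far above each siControl library. The means were 51.0 ± 7.80 and 257.6 ± 27.3 CPM (SD, n = 3), and the fold in edgeR's fit was 5.07. The log2 fold change was 2.34 (SE 0.12, adjusted p = 7.77e-11 in edgeR's quasi-likelihood test with Benjamini-Hochberg adjustment).

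EREG (ENSG00000124882.3, chr4:74365145-74388749, plus strand) encodes epiregulin, which binds EGFR and ERBB4. Its level was 4.22, 2.98 and 4.86 CPM in siControl replicates 1, 2 and 3, from 79, 56 and 51 counts. It was 16.0, 18.9 and 19.05 CPM in siDGUOK replicates 1, 2 and 3, from 296, 307 and 414 counts. The groups lay far apart, though the siControl level rested on few counts. Its log2 fold change was 2.17 (SE 0.28, adjusted p = 1.69e-05 in edgeR's quasi-likelihood test with Benjamini-Hochberg adjustment).

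HBEGF (ENSG00000113070.7) encodes heparin-binding EGF-like growth factor, which binds EGFR and ERBB4. It stood at 5.82, 9.48 and 4.58 CPM in siControl replicates 1, 2 and 3, and at 6.75, 5.79 and 4.05 CPM in siDGUOK replicates 1, 2 and 3. The groups overlapped, and the spread among the siControl libraries was wider than the distance between the means. The log2 fold change was −0.27 (95% CI −1.08 to 0.54, adjusted p = 0.713 in edgeR's quasi-likelihood test with Benjamini-Hochberg adjustment). Without siControl replicate 2 its sign turned, to 0.08.

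TGFA (ENSG00000163235.15) encodes transforming growth factor alpha, a ligand of EGFR. It stood at 31.2, 32.6 and 31.4 CPM in siControl replicates 1, 2 and 3, and at 34.9, 36.4 and 46.1 CPM in siDGUOK replicates 1, 2 and 3. The groups did not overlap, but siDGUOK replicate 3 lay apart from the other 2. Its log2 fold change was 0.30 (95% CI −0.03 to 0.63, adjusted p = 0.205 in edgeR's quasi-likelihood test with Benjamini-Hochberg adjustment). Without siDGUOK replicate 3 it fell to 0.16. BTC, which encodes betacellulin, had 1 count in siDGUOK replicate 1 and 0 in the other libraries, so no fold is given.

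Per kb of canonical transcript, AREG made up 75.6%, 78.1% and 81.0% of the summed level of AREG, EREG, HBEGF and TGFA in siControl replicates 1, 2 and 3. Its share was 93.0%, 92.7% and 93.2% in siDGUOK replicates 1, 2 and 3. AREG was the most abundant of these ligands in every library of both groups. The summed level of the 4 ligands ran from 45.0 to 57.4 CPM per kb in siControl and from 211.1 to 251.3 CPM per kb in siDGUOK libraries.

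**Figure D3:**
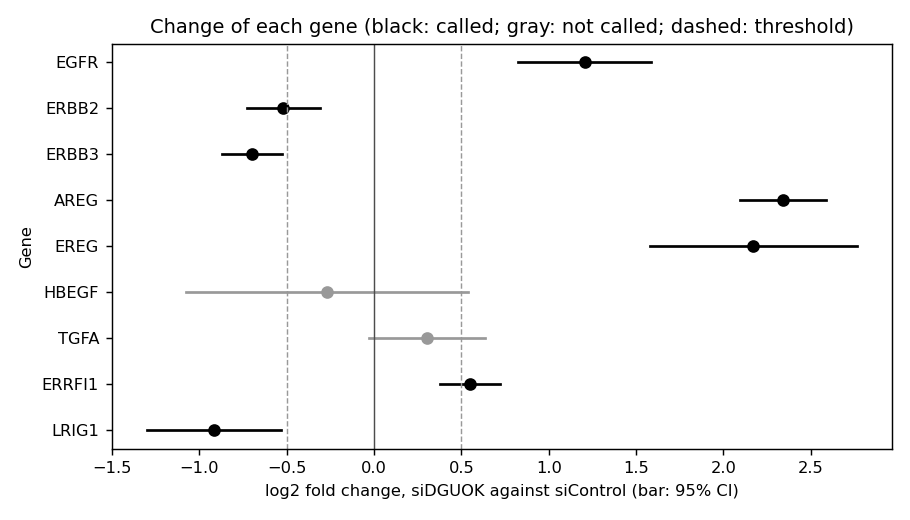
Log2 fold changes of siDGUOK against siControl with 95% confidence intervals from edgeR's fit, in black for called genes and gray for others, with dashed lines at the fold threshold of 0.5. AREG and EREG lie farthest from 0, and among the called genes the intervals of ERBB2 and ERRFI1 cross the threshold.

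AREG and EREG lie in one cluster of EGF-like genes on chromosome 4, with gene starts 80.0 kb apart and BTC on its far side. Within 1 Mb of the AREG start, the table lists 24 genes, AREG included, and 5 of them were tested. Of these, 3 were called higher and 0 lower: AREG, EREG and CXCL8, which encodes the chemokine interleukin-8. The window was centred on AREG with the rises of AREG and EREG known, so of the other 3 tested genes 1 was called, where 14.1% of all genes tested were called. CXCL8 went from 16.5 to 221.9 CPM, a log2 fold change of 3.75 (SE 0.12). MTHFD2L had one of 0.49 (95% CI −0.05 to 1.04) and RASSF6 one of 2.49 (95% CI 0.27 to 4.72), and neither was called. The other 19 genes had too few counts to be tested, so the cluster can be read at few points.

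**Figure D4:**
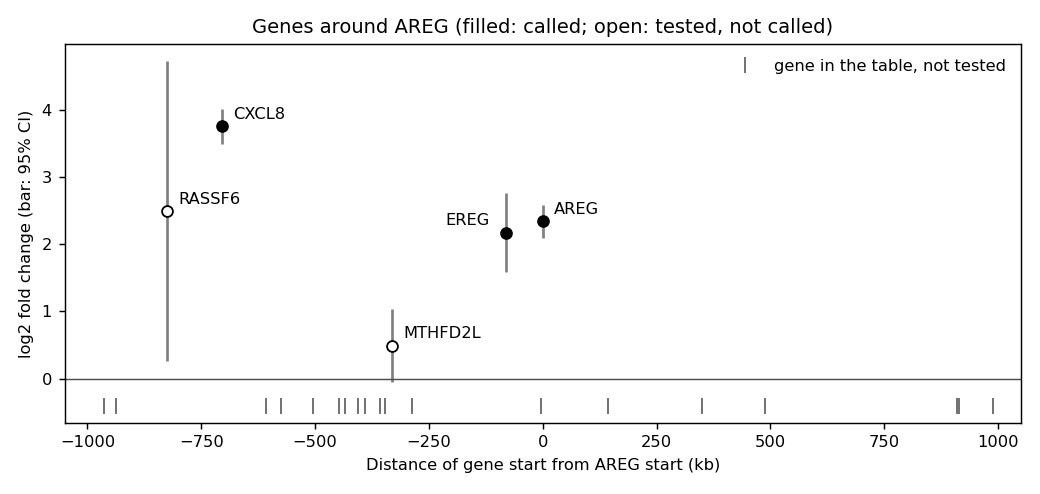
Log2 fold change of siDGUOK against siControl for the 5 genes tested within 1 Mb of the AREG start, against the distance of each gene start in kb, with 95% confidence intervals. Filled dots are called genes and ticks mark genes in the table that were not tested; both EREG and AREG lie above 2.

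The sequence before the starts of AREG and EREG is shown because these neighbours rose together. RefSeq's promoter table (GRCh38.p14) held an entry for 9 of the 10 members. The windows are the 200 bases before each gene start on the plus strand, chr4:74444936-74445135 for AREG and chr4:74364945-74365144 for EREG. Capitals mark matches on either strand. The letters searched were TGACGTCA for a cyclic AMP response element, TGANTCA for the AP-1 motif, TATAAA for the box of that name, GGAATG for the TEAD motif and CCAAT for the box of that name.
AREG: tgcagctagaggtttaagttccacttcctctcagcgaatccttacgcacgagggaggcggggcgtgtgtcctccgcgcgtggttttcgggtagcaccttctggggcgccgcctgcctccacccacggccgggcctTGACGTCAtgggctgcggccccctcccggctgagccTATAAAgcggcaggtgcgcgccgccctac
EREG: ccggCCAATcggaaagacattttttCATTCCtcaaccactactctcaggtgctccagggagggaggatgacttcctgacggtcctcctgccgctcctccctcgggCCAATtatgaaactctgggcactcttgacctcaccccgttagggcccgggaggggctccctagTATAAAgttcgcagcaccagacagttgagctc
The AREG window holds TGACGTCA from 65 to 58 bases before the start and TATAAA from 29 to 24 bases before it. The EREG window holds TATAAA from 32 to 27 bases before its start, the TEAD motif on the opposite strand, and CCAAT at 2 places. Over the 35116 windows of the same length in the table, TGACGTCA was found in 1.57%, TGANTCA in 5.38%, TATAAA in 8.59%, GGAATG in 9.51% and CCAAT in 28.0%. Some genes have several start sites, 14 for the 9 members, so a member can match in more than 1 window while these shares are per window. Among the members with an entry, TGACGTCA was found for AREG, TATAAA for AREG, EREG and EGFR, the TEAD motif for EREG and EGFR, CCAAT for EREG, ERRFI1 and LRIG1, and the AP-1 motif for EGFR and LRIG1. These matches describe letters in a window and were not tested for binding.

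ERRFI1 (ENSG00000116285.12, chr1:8004404-8026309, minus strand) encodes MIG6, an intracellular inhibitor that binds the EGFR kinase domain. A long noncoding RNA gene on the opposite strand shares 3.71% of its exon bases. It stood at 387.7, 459.0 and 445.8 CPM in siControl replicates 1, 2 and 3, and at 677.2, 624.0 and 590.3 CPM in siDGUOK replicates 1, 2 and 3. The groups did not overlap. The log2 fold change was 0.55 (SE 0.08, adjusted p = 7.7e-05 in edgeR's quasi-likelihood test with Benjamini-Hochberg adjustment). It was 0.48 without siControl replicate 1 and 0.48 without siDGUOK replicate 1, under the fold threshold in both fits.

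LRIG1 (ENSG00000144749.13, chr3:66378797-66501263, minus strand) encodes a transmembrane protein that promotes the breakdown of ERBB receptors. It stood at 34.3, 29.5 and 37.7 CPM in siControl replicates 1, 2 and 3, and at 16.8, 20.6 and 16.4 CPM in siDGUOK replicates 1, 2 and 3. Each siDGUOK library lay below each siControl library. Its log2 fold change was −0.92 (SE 0.18, adjusted p = 0.0012 in edgeR's quasi-likelihood test with Benjamini-Hochberg adjustment). In Gencode 44, SLC25A26 on the opposite strand overlaps 37.9% of LRIG1's exon bases. Reads over several genes were not counted, but the counting used Gencode 27, where this overlap was not examined. The part of LRIG1's exons that its level rests on is therefore uncertain. SLC25A26 stood at 30.8 ± 2.48 CPM in siControl and 36.4 ± 3.03 CPM in siDGUOK cells (SD, n = 3) and was not called. The inhibitors thus moved in opposite directions.

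Across the members, levels per kb of canonical transcript were highest for ERRFI1 in siControl cells, at 139.1 ± 12.2 CPM per kb (SD, n = 3). ERBB3 (47.0 ± 1.54), ERBB2 (43.7 ± 4.02) and AREG (41.3 ± 6.32 CPM per kb) followed, and did not differ beyond their spread. TGFA (7.70 ± 0.18), LRIG1 (6.30 ± 0.77), HBEGF (2.81 ± 1.08), EGFR (1.63 ± 0.10) and EREG (0.87 ± 0.21 CPM per kb) came below them. In siDGUOK cells AREG (208.7 ± 22.1) and ERRFI1 (203.6 ± 14.1 CPM per kb) were highest and within each other's spread. ERBB2 (30.5 ± 3.67) and ERBB3 (29.0 ± 1.75 CPM per kb) came next, then TGFA (9.50 ± 1.48). EREG (3.90 ± 0.37), EGFR (3.76 ± 0.59) and LRIG1 (3.34 ± 0.43 CPM per kb) followed, where EGFR differed from neither neighbour beyond its spread, and HBEGF was at 2.35 ± 0.58. The place of LRIG1 in both orders is uncertain. Its level per kb may be too low, since its whole length was used while reads over bases shared with SLC25A26 may not have been counted. AREG thus moved from the level of the abundant receptors to that of ERRFI1. With the union of exons as length, AREG stood above ERBB3 and ERBB2 in siControl cells too, at 31.1 against 22.5 and 19.3 CPM per kb.

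For each called member, the genes that averaged 10 CPM or more over the 6 libraries and had the smallest root mean square difference in gene-centred log2 CPM were sought among 9225 others. TUBA1A (0.07), TMSB10 (0.09) and SHC1 (0.09) were nearest to EGFR. For AREG they were S100A6 (0.12), GPRC5A (0.15) and ADAM19 (0.17), and for EREG they were COLGALT2 (0.10), F2RL1 (0.12) and KCNJ10 (0.13). OBSL1, ZBTB5 and AL365181.3 were nearest to ERBB2, PDIA3 and PKP2 to ERBB3, HIGD1A, LAMTOR3 and HAT1 to ERRFI1, and CFDP1, ECE1 and SLC13A5 to LRIG1. The measure takes in the difference between the groups, so near genes have similar log2 fold changes, such as TUBA1A (1.17) beside EGFR (1.21). SHC1 and ADAM19 also stand in the pathway lists.

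The other receptor and ligand genes of the family were at or near 0. ERBB4 had 7 counts in siDGUOK replicate 1, 3 in replicate 2 and 0 elsewhere, and EGF had 5 counts in siControl replicate 2 and 0 elsewhere. The neuregulin gene NRG1 had 0 to 12 counts and NRG2 had 0 to 9 counts per library. NRG3 and NRG4 had 0 in all 6 libraries, and no gene of the count table carried the symbol EPGN. None of the others had enough counts to be tested.

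Across 79 other pathway genes tested, 17 were called, 12 higher and 5 lower, or 21.5% beside 14.1% of all genes tested. Their median log2 fold change was 0.05, and that of all genes tested was 0.02. The lists differed from each other in direction and in count, without a test of that difference.

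Of 12 genes of ligand shedding and trafficking tested, 2 were called higher and 1 lower (25%, against 14.1% of all genes tested), with a median log2 fold change of 0.08. ADAM19, a membrane metalloprotease, stood at 12.4, 16.9 and 14.0 CPM in siControl replicates 1, 2 and 3, and at 86.8, 66.7 and 97.4 CPM in siDGUOK replicates 1, 2 and 3. The groups lay far apart, with a log2 fold change of 2.53 (SE 0.17). CNIH4, a cargo receptor of the early secretory pathway, had a log2 fold change of 0.57 (SE 0.14), which fell to 0.49 without siControl replicate 3. TIMP3, an inhibitor of ADAM17, had one of −0.50 (SE 0.11). Its call was lost with DESeq2's shrunken fold changes (−0.49), without the count filter (−0.49), without siControl replicate 2 (−0.44) and without siDGUOK replicate 2 (−0.42). ADAM17, the main sheddase of AREG and EREG, named for that role with its value known, had a log2 fold change of 0.20 with overlapping groups and was not called.

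Of 19 genes of receptor restraint and turnover, 3 were called higher and 3 lower (31.6%, against 14.1% of all genes tested), with a median log2 fold change of 0.25. HGS, which sorts ubiquitinated receptors at the endosome, had a log2 fold change of 0.96 (SE 0.11). SH3KBP1, an adaptor of CBL in receptor endocytosis, had one of 0.76 (SE 0.13). LRIG2, a relative of LRIG1, had one of −0.91 (SE 0.24). CBLC, a ubiquitin ligase, had one of −1.62 (SE 0.45), and lost its call without siControl replicate 3 (adjusted p = 0.102 in edgeR's test) and without siDGUOK replicate 1 (adjusted p = 0.0772 in edgeR's test). Those fits gave log2 fold changes of −1.43 and −1.40.

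Of 21 adaptors and members of the RAS-ERK cascade, 2 were called higher and 1 lower, with a median log2 fold change of −0.10. That share, 14.3%, is near the 14.1% of all genes tested. SHC1, which links the receptors to RAS, stood at 130.1, 137.8 and 128.3 CPM in siControl replicates 1, 2 and 3, and at 274.6, 305.4 and 315.5 CPM in siDGUOK replicates 1, 2 and 3. Its groups did not overlap, and its log2 fold change was 1.18 (SE 0.08). MAP2K1, which encodes the ERK kinase MEK1, had one of 0.69 (SE 0.11). RPS6KA3, a kinase downstream of ERK, had one of −0.57 (SE 0.11), which moved to −0.45 without siControl replicate 1 and to −0.48 without siDGUOK replicate 3.

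Of 18 genes of the PI3K, PLC and STAT arm tested, 0 were called by edgeR (against 14.1% of all genes tested) and 0 by DESeq2, with or without shrinkage. An unadjusted p under 0.05 in edgeR's test was found for 3 of the 18, against 4425 of all 14476 genes tested. The adjusted p was under 0.05 for 3 of the 18, which missed the fold threshold, against 2847 of all genes tested. The median log2 fold change was −0.04. PLCG1, singled out after its value was seen, had a log2 fold change of 0.46 and was called without siControl replicate 3 (0.50) or without siDGUOK replicate 1 (0.50).

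Of 9 transcripts known to follow ERK activity, 5 were called higher and 0 lower by edgeR (55.6%, against 14.1% of all genes tested), and their median log2 fold change was 0.79. DUSP4, a phosphatase of ERK, stood at 8.12, 7.09 and 5.34 CPM in siControl replicates 1, 2 and 3, and at 37.2, 42.7 and 43.1 CPM in siDGUOK replicates 1, 2 and 3. The groups lay far apart, with a log2 fold change of 2.56 (SE 0.20). SPRY4, an inhibitor of RAS-ERK signaling, had one of 1.23 (SE 0.14), PHLDA1 one of 0.91 (SE 0.07), and DUSP6, another phosphatase of ERK, one of 0.88 (SE 0.09). The activity of ERK and of the receptors was not measured.

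Of 23 other receptor tyrosine kinases tested, 4 were called higher and 8 lower (52.2%, against 14.1% of all genes tested), with a median log2 fold change of −0.29. The number called ran from 10 to 14 across the alternatives. PDGFRB, among the lower calls, lost its call in each fit without 1 library except that without siDGUOK replicate 2. EPHB1, an ephrin receptor, stood at 0.64, 0.00 and 0.67 CPM in siControl replicates 1, 2 and 3, and at 21.7, 23.8 and 29.6 CPM in siDGUOK replicates 1, 2 and 3. Its groups lay far apart, with a log2 fold change of 5.93 (SE 0.50). That fold rests on 12, 0 and 7 counts in siControl replicates 1, 2 and 3, so its size is uncertain, and the gene passed the count filter through its siDGUOK level. TIE1, a receptor known from endothelium, had one of 2.90 (SE 0.19), and AXL, the receptor of GAS6, one of 1.43 (SE 0.16). EPHA1, another ephrin receptor, had one of −1.89 (SE 0.26). Both directions were therefore seen among receptor kinases outside the ERBB family as well.

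**Figure D5:**
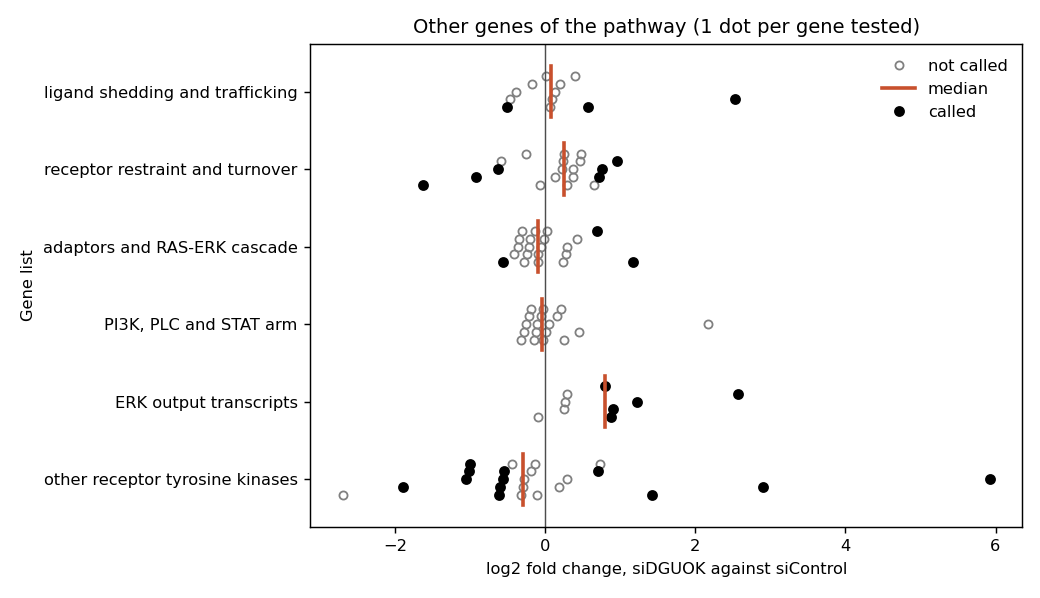
Log2 fold change of siDGUOK against siControl for each tested gene of 6 lists, with filled dots for called genes, open dots for others and a bar at each median. The median of ERK output transcripts lies at 0.79 and the PI3K, PLC and STAT arm has no filled dot.

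Markers of cell types moved with these results. Of 10 hepatocyte markers, 8 were called lower and 0 higher (80%, against 14.1% of all genes tested), and their summed level was 52936, 47177 and 46188 CPM in siControl replicates 1, 2 and 3 and 27465, 23968 and 22542 CPM in siDGUOK replicates 1, 2 and 3. ALB, which encodes albumin, was the most abundant and had a log2 fold change of −1.58 (SE 0.15). Of 5 cholangiocyte markers tested, 2 were called higher and 1 lower (60%, against 14.1% of all genes tested). Their summed level ran from 1703 to 1891 CPM in siControl and from 3530 to 3749 CPM in siDGUOK libraries, with KRT19 the most abundant. Without KRT19 the sums ran from 859 to 971 CPM and from 987 to 1224 CPM, so that KRT19 carried most of the difference. EPCAM was the marker called lower, with a log2 fold change of −0.82 (SE 0.09). The part of these marker changes in the ERBB results was not tested.

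Markers of cells that a HepG2 culture should lack were low, apart from LYZ, and some were called. Of 3 mesenchymal markers tested, 1 was called higher and 1 lower (66.7%, against 14.1% of all genes tested). Of 4 endothelial markers 1 was called higher (25%, against 14.1%), and of 6 leukocyte markers 1 was called higher. The lower mesenchymal call, PDGFRB, was lost in each fit without 1 library except that without siDGUOK replicate 2, at adjusted p-values from 0.0551 to 0.125 in edgeR's test. In the fits that lost it, the log2 fold change ran from −1.13 to −0.81, against −1.02 with all libraries. The endothelial call, LYVE1, was lost without siControl replicate 1 (adjusted p = 0.0934 in edgeR's test) and without siDGUOK replicate 3 (adjusted p = 0.0792 in edgeR's test). Those fits gave LYVE1 log2 fold changes of 2.85 and 3.10, against 3.09 with all libraries. The leukocyte call, CD79A, was lost with DESeq2's shrunken fold changes, where its log2 fold change was 0.25. CD79A had 0, 0 and 7 counts in siControl replicates 1, 2 and 3, and passed the count filter through its siDGUOK level. In the same libraries COL1A1, the higher mesenchymal call, had 9, 37 and 11 counts, and LYVE1 had 29, 7 and 59. Each had a siControl library under the minimum count of 10, so both also passed the filter through their siDGUOK level. The size of these folds is uncertain. Other markers gained a call: CDH5 without the count filter or without siControl replicate 3, PECAM1 without the count filter or without siDGUOK replicate 1, COL1A2 without siDGUOK replicate 3, and PTPRC without siControl replicate 2. The leukocyte share called, 16.7%, is near the 14.1% of all genes tested, and lists of 3 to 6 genes give no firm share. Among the leukocyte markers, LYZ accounted for nearly all of a sum of 1612 to 1704 CPM in siControl and 1768 to 1905 CPM in siDGUOK libraries, and the other 5 summed to 2.67 to 5.97 and 9.29 to 22.2 CPM. Mesenchymal markers summed to 10.3 to 15.0 CPM in siControl and 21.6 to 56.1 CPM in siDGUOK libraries, with COL1A1 the most abundant on average; it went from 0.48, 1.97 and 1.05 CPM to 20.2, 20.7 and 17.4 CPM in replicates 1, 2 and 3. Endothelial markers summed to 1.76 to 7.91 CPM in siControl libraries and to 20.0, 83.3 and 23.3 CPM in siDGUOK replicates 1, 2 and 3, with LYVE1 the most abundant on average and STAB2 at 0. In siDGUOK replicate 2, VWF was at 31.4 CPM and LYVE1 at 24.7 CPM. This library was also the highest of the siDGUOK libraries for the mesenchymal sum, at 56.1 CPM against 42.4 and 21.6 CPM, and for the leukocyte sum without LYZ, at 22.2 CPM against 9.29 and 13.5 CPM in replicates 1 and 3. Without siDGUOK replicate 2, 6 members were called, with ERBB2 lost for its fold. Without siDGUOK replicate 1, 6 members were called, with ERRFI1 lost for its fold.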

How the data were processed

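RNA of 3 siControl and 3 siDGUOK HepG2 cultures was sequenced 48 h after transfection. The authors aligned reads to GRCh38 (Gencode 27) with STAR 2.6.1 and counted them per gene with featureCounts 1.6.5; the submitters' processing notes also list Bowtie 1.1.2. The deposited values are whole counts per gene, not normalized by the authors. Counting ignored strand and left out reads that map to several places or overlap several genes, so overlapping and antisense genes are uncertain. Totals ran from 10527216 to 21334876 counts, and low counts limit EREG and HBEGF most among the members tested.

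Groups came from sample titles. In R 4.3.3, edgeR 4.0.16 filtered genes with filterByExpr (minimum count 10), scaled by TMM on library totals over all genes, and fitted condition as the only term by robust quasi-likelihood. The fit was first run with library sizes recomputed after the filter. Totals over all genes were adopted after both results had been seen, in order to follow an earlier analysis of these counts; the effect is given with the alternatives. Confidence intervals use the fit's degrees of freedom. The alternatives tried were DESeq2 1.42.0 (fold changes shrunken or not), scaling by RLE or upper quartile, no count filter, the replicate number as a block, no fold threshold, and each library left out in turn. Scripts were tested on simulated data.

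Members and gene lists were chosen with earlier results of these data known. From each pathway list, up to 4 called genes of the largest absolute log2 fold change are named, plus ERBB4, EGF, EPGN, the neuregulin genes and the 3 genes nearest to each called member over the 6 libraries. Genes named by position or overlap, all cell type markers, and those said so in the text were named outside this rule, the markers after their values were seen. An item that the naming rule covers is not reported here. Coordinates, lengths and exon overlaps are from Gencode 44, while the counts rest on Gencode 27.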

Additional observations from a re-analysis of the deposited data

How the results depend on the processing

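EGFR, ERBB3, AREG, EREG and LRIG1 were called in the same direction under every alternative and with each library left out; the number of members called was 6 without any 1 library and 7 under the other alternatives. HBEGF reversed without siControl replicate 2 (0.083), and the cause was not tested. Across the fits that leave out 1 library, the log2 fold change ran from −0.64 to −0.46 for ERBB2, from 0.48 to 0.60 for ERRFI1, from −0.47 to 0.083 for HBEGF and from 0.16 to 0.36 for TGFA. DESeq2's shrunken fold changes moved EREG most, to 1.61. Among all genes, 2041 were called, 1074 of them higher, and the alternatives gave 1704 to 2172 calls, or 2847 with no fold threshold. Library sizes recomputed after the filter, the choice run first and then replaced after both were seen, gave 2032 calls, 1033 higher, of which 2000 were shared; ERBB2 moved to −0.53, ERRFI1 to 0.54, and the same 7 members were called. A dispersion estimate that is not robust, also tried after seeing the data, gave 2041 calls, and both changes together gave 2032. The replicate numbers gave no pairing (correlations of deviations 0.024, 0.017 and −0.0022 for replicates 1, 2 and 3), and the replicate block gave 2077 calls, 7 members and 17 other pathway genes; among the cell type markers it added calls for COL1A2, VWF and PTPRC. Pathway calls ran from 16 to 18, or 25 with no fold threshold. Groups of 3 were not given an outlier test. BTC, ERBB4 and the neuregulin genes had too few counts to be tested, and the reason for their low counts was not tested.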
